A study of Caenorhabditis elegans with 6 samples.

Results

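Genes of the cytosolic heat shock system, 10 in number, were followed in whole wild-type Caenorhabditis elegans kept with or without ilimaquinone, a sesquiterpenoid quinone from marine sponges. They were picked by gene symbol, and all 10 were found among the 47656 genes of the deposited gene table. They are the transcription factor gene hsf-1, the HSP70 genes hsp-1, hsp-70, F44E5.4 and F44E5.5, the HSP110 gene hsp-110, the HSP90 gene hsp-90, the J-protein genes dnj-12 and dnj-13, and the co-chaperone gene sti-1. All 10 passed the filter on low counts, which 16506 genes passed in all.

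HSF-1 is the worm heat shock transcription factor, which turns on chaperone genes when proteins misfold and also has roles in larval development and lifespan. Cytosolic HSP70 proteins bind and release unfolded stretches of protein in a cycle driven by ATP. J proteins bring clients to HSP70 and speed its ATP hydrolysis, and HSP110 proteins release the nucleotide again. HSP90 takes over many partly folded clients, such as kinases and receptors, and STI-1, the counterpart of mammalian Hop, links the HSP70 and HSP90 machines.

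The vehicle group comprised 3 libraries from worms held for 11 days, from the last larval stage on, at 20 °C in S-basal medium with 200 µM FUDR, which blocks DNA synthesis and thereby progeny, and 100 µg/mL ampicillin. The ilimaquinone group comprised 3 libraries from worms under the same regime that also received the compound at 100 µM. All 6 libraries were poly(A) RNA of whole animals, so a lower level of a transcript could come from fewer cells of a type or from less RNA per cell, which cannot be told apart here. Nothing in the labels places the libraries of a group in separate cultures, and p-values therefore cover only the spread between these libraries.

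Totals ranged from 32155192 to 39244786 estimated counts per library. Vehicle replicate 1 stood apart, at -98.8 on the first principal component, against -26.5 to 54.1 for the other 5 libraries. The summed level of 29 germline and oocyte markers was 4798 CPM in that library, against 1005 to 1709 CPM elsewhere, and 12 neuron markers summed to 1983 CPM there, against 3171 to 3639 CPM elsewhere. The germline markers were not low in ilimaquinone against vehicle replicate 1 alone. Of the 29, 18 had every ilimaquinone library below every vehicle library, beside 15% of all tested genes. Still, edgeR called 0 of the 29, beside 0.327% of all tested genes called lower. Sperm markers summed to 107 CPM in vehicle replicate 1 and to 9.46 to 43.9 CPM elsewhere. Epidermis markers summed to 392, 329 and 197 CPM with vehicle and 375, 489 and 579 CPM with ilimaquinone, lowest and highest in the libraries numbered 3. Of the 7 epidermis markers, 5 had a positive and 2 a negative log2 fold change, from -2.10 to 1.48. Muscle markers summed to 3886 to 4776 CPM and intestine markers to 2536 to 3458 CPM, with overlapping groups. Singly, 1 of 7 intestine markers was higher and 2 were lower in every ilimaquinone library than in any vehicle library. The shares over all tested genes were 15.8% higher and 15% lower. No marker was at 0 in any library. The part of these marker levels in the chaperone values was not tested.

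Chaperone transcripts were abundant in both groups, and hsf-1 transcripts were not. Levels between genes are given in TPM, a unit that scales each library to a fixed total and accounts for transcript length. The HSP90 gene hsp-90 was at 3723, 4041.5 and 4457 TPM in vehicle replicates 1, 2 and 3 and at 4855, 4738 and 4928 TPM in the ilimaquinone libraries. By mean TPM it ranked 34 among all genes listed. The constitutive HSP70 gene hsp-1 came next, at 2298, 1784 and 2769 TPM with vehicle and 2917, 2658 and 3243 TPM with ilimaquinone. The factor gene hsf-1 was at 40.9, 31.5 and 32.1 TPM with vehicle and at 33.0, 34.2 and 30.8 TPM with ilimaquinone, and ranked 3760.

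**Figure D1:**
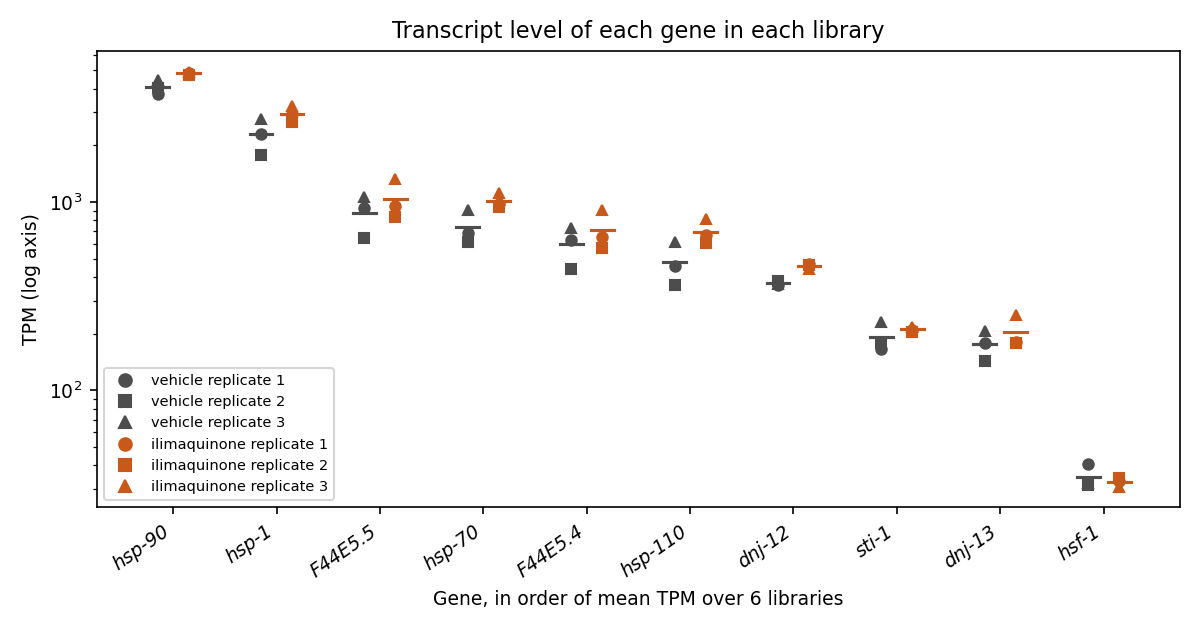
Level of each gene in TPM (log axis) in each of 6 libraries, with genes ordered by mean TPM; grey marks are vehicle, orange marks ilimaquinone, marker shapes are replicate numbers and short lines are group means. The order runs from hsp-90, at 3723 to 4928 TPM, to hsf-1, at 30.8 to 40.9 TPM.

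The heat-inducible HSP70 genes were also abundant in the vehicle libraries. In young worms at normal temperature these genes are known for very low transcript levels. The gene hsp-70 was at 684, 613 and 909.5 TPM with vehicle and at 975, 941 and 1116 TPM with ilimaquinone. F44E5.4 was at 629.99, 439 and 731 TPM with vehicle and at 652, 572 and 908 TPM with ilimaquinone. With F44E5.5, these genes made up 49.4%, 48.7% and 49.4% of cytosolic HSP70 TPM, hsp-1 included, in the vehicle libraries and 46.9%, 46.9% and 50.8% in the ilimaquinone libraries. The shares overlapped between the groups, with means of 49.1% ± 0.394 and 48.2% ± 2.27 (SD, n = 3). Leaving out F44E5.5, hsp-70 and F44E5.4 made up 36.9% ± 0.448 and 36.8% ± 1.40 of the TPM of these genes with hsp-1. All these shares are uncertain, because F44E5.4 and F44E5.5 are not measured separately.

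Neighbouring genes in the order of mean TPM were not always apart. In each of the 6 libraries hsp-90 was above hsp-1, hsp-1 above F44E5.5, hsp-70 above F44E5.4, dnj-12 above sti-1 and dnj-13 above hsf-1. The pairs F44E5.5 and hsp-70, F44E5.4 and hsp-110, and sti-1 and dnj-13 kept their order in 4 of 6 libraries, and hsp-110 and dnj-12 in 5 of 6. The ranges over libraries overlapped in all of these 4 pairs, and also between hsp-70 and F44E5.4. The places of F44E5.4 and F44E5.5 in this order are uncertain, because these genes are not measured separately.

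The comparison of ilimaquinone with vehicle asks whether the compound changes these transcripts in adult worms. None of the 10 genes was called by edgeR at an adjusted p under 0.05, with adjustment over all tested genes, where 1.14% of tested genes were called higher and 0.327% lower. DESeq2 and limma-trend also called 0 of the 10, and DESeq2 called 11.1% of all tested genes. At an unadjusted p under 0.05 there was 1 higher gene among the 10, dnj-12, and no lower one, against 10.1% higher and 11.8% lower over all tested genes. The J-protein gene dnj-12 was also the 1 gene whose groups did not overlap, against 15.8% of tested genes with separated groups that were higher and 15% that were lower. The 10 genes thus held no larger share of separated genes than the background.

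Point estimates were mostly above 0 although none passed. The log2 fold change was positive for 9 of the 10 genes, with F44E5.4 and F44E5.5 counted as 2 although they are not measured separately, and negative for hsf-1. Its median over the 10 was 0.23, beside -0.02 over all tested genes, of which 48.0% had a positive value. The 12 neuron markers also lay mostly above 0, with 11 positive, 1 negative and a median of 0.275. Medians of the other marker lists ran from -1.87 for sperm to 0.68 for epidermis. Leaving out 1 library moved the median of the 10 to 0.124 without vehicle replicate 2, to 0.132 without ilimaquinone replicate 3, where 6 of the 10 were positive, and to 0.416 without vehicle replicate 3. The 95% interval included 0 for 9 of the 10, so neither a change nor its absence is shown for them.

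**Figure D2:**
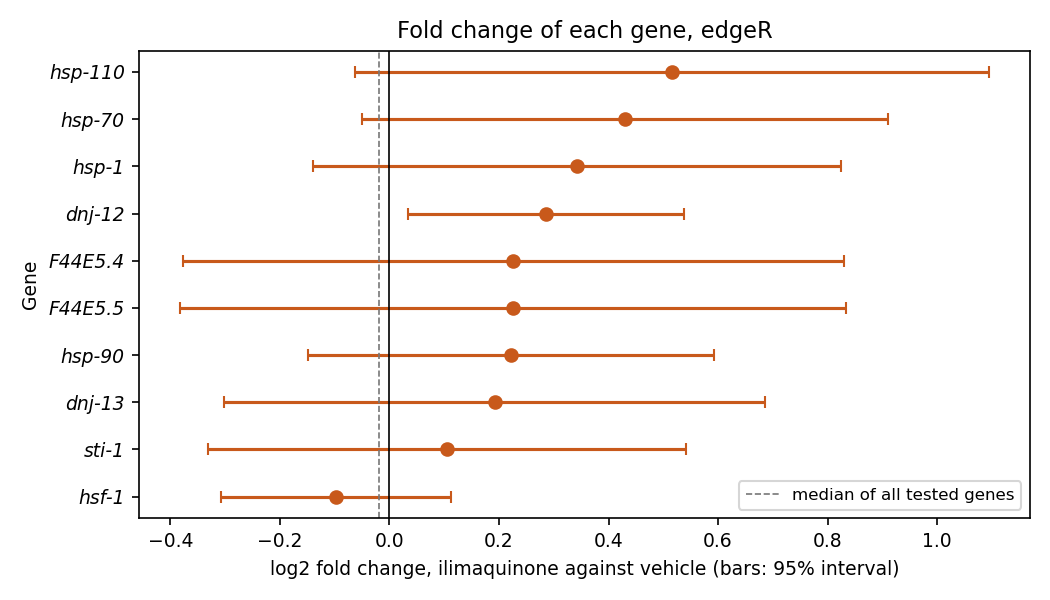
The log2 fold change of each gene from edgeR with its 95% interval (points and bars), ilimaquinone against vehicle, with the median of all tested genes as a dashed line. The intervals of all genes but dnj-12 cross 0, and that of hsf-1 ends at 0.11.

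The heat shock factor gene hsf-1 (gene 173078, chromosome I, 11953507 to 11963085, build WBcel235) was steady across libraries. CPM, counts scaled to library size without regard to length, is used for values of 1 gene across libraries. Its level was 73.7, 65.5 and 70.1 CPM with vehicle and 66.5, 67.1 and 62.1 CPM with ilimaquinone. The ilimaquinone libraries lay within or just below the vehicle range. With ilimaquinone it differed by -0.10 ± 0.09 (log2 fold change ± SE), with a 95% interval of -0.31 to 0.11 (edgeR adjusted p = 0.528). This interval was narrower than those of the 9 chaperone genes. The sign stayed negative under each of 14 alternative settings, from -0.16 to -0.06.

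Among the HSP70 genes the estimates were larger and the spread was wider. The constitutive gene hsp-1 (gene 178507, chromosome IV) was at 3573, 3202 and 5208 CPM with vehicle and 5070.2, 4491 and 5627 CPM with ilimaquinone. Vehicle replicate 3 sat among the ilimaquinone libraries and the other vehicle libraries sat below them. The estimate was a log2 fold change of 0.34 ± 0.20, with an interval of -0.14 to 0.82 (edgeR adjusted p = 0.349). It was 0.57 without vehicle replicate 3, 0.19 without vehicle replicate 2 and 0.26 without vehicle replicate 1.

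The inducible gene hsp-70 (gene 172757, chromosome I, 9320325 to 9322628) showed the same arrangement. It was at 1079, 1116 and 1735 CPM with vehicle and 1718, 1613 and 1963 CPM with ilimaquinone. Vehicle replicate 3 again reached the ilimaquinone range. For hsp-70 the log2 fold change was 0.43 ± 0.20, with an interval of -0.05 to 0.91 (edgeR adjusted p = 0.263). Without vehicle replicate 3 it was 0.67 (edgeR adjusted p = 0.0776), still not called, and without vehicle replicate 1 it was 0.30. Over all alternatives the adjusted p ran from 0.0776 to 0.498.

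F44E5.4 and F44E5.5 encode inducible HSP70 proteins that are nearly identical, and they sit side by side on chromosome II and point away from each other. The deposited table does not measure them separately. In Ensembl release 115 they lie 350 bases apart on opposite strands, at 11757107 to 11759311 and at 11759662 to 11761861. The deposited locus of F44E5.5 runs from 11757107 to 11761853 and so takes in all of F44E5.4, with a transcript length of 4317 bases against 2091 in Ensembl. The count of F44E5.5 was 2.97 to 3.01 times that of F44E5.4 in every library, a near-constant ratio. Either value is therefore uncertain, and so is the TPM of F44E5.5, which rests on the longer length.

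F44E5.4 was at 967, 778 and 1356 CPM with vehicle and 1118, 954 and 1555 CPM with ilimaquinone. Both groups were highest in replicate 3 and lowest in replicate 2, and they overlapped. F44E5.4 had a log2 fold change of 0.23 ± 0.25, with an interval of -0.38 to 0.83 (edgeR adjusted p = 0.613). It was 0.23 ± 0.26 for F44E5.5 and 0.23 ± 0.26 for the counts of both added up (edgeR adjusted p = 0.618 and 0.619). Without ilimaquinone replicate 3 the values of F44E5.4 and F44E5.5 were -0.01 each, and without vehicle replicate 3 they were 0.46 and 0.45. They were 0.04 each without vehicle replicate 2.

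The gene hsp-110 (gene 176195, chromosome III, 8443857 to 8446909), whose product is the nucleotide exchange partner of HSP70, had the largest estimate of the 10. It was at 913, 836 and 1495 CPM with vehicle and 1489.6, 1326 and 1825 CPM with ilimaquinone. Vehicle replicate 3 was within the ilimaquinone range, and the other vehicle libraries were below it. This gave a log2 fold change of 0.52 ± 0.24, with an interval of -0.06 to 1.095 (edgeR adjusted p = 0.264). It was 0.81 without vehicle replicate 3 (edgeR adjusted p = 0.0996) and 0.34 without vehicle replicate 2 (edgeR adjusted p = 0.383). Without vehicle replicate 1 it was 0.40. The adjusted p ran from 0.0996 to 0.519 over all alternatives.

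Measured within a library, hsp-110 stood higher beside hsp-1 with ilimaquinone. Its TPM was 19.8%, 20.2% and 22.3% of that of hsp-1 in the vehicle libraries and 22.8%, 22.9% and 25.1% in the ilimaquinone libraries. The groups did not overlap, though vehicle replicate 3 and ilimaquinone replicate 1 were close. The means were 20.8% ± 1.31 and 23.6% ± 1.34 (SD, n = 3). No test was run on this proportion.

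The J-protein genes differed in how closely the libraries of a group lay together. The class A J-protein gene dnj-12 (gene 173341, chromosome I, 14756858 to 14758790) was at 456, 548 and 558 CPM with vehicle and 653, 633 and 619 CPM with ilimaquinone. Every ilimaquinone library was above every vehicle library. Its log2 fold change was 0.29 ± 0.11, with an interval of 0.03 to 0.54, and did not pass (edgeR adjusted p = 0.195). It was 0.19 without vehicle replicate 1, the lowest library (edgeR adjusted p = 0.188), and its adjusted p ran from 0.0787 to 0.457 over the alternatives.

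The class B J-protein gene dnj-13 (gene 3564910, chromosome II, 11545701 to 11547501) was at 187, 172 and 260.0 CPM with vehicle and 210.3, 202 and 295 CPM with ilimaquinone. As for F44E5.4, replicate 3 was the highest library and replicate 2 the lowest in both groups. For dnj-13 the log2 fold change was 0.19 ± 0.21, with an interval of -0.30 to 0.69 (edgeR adjusted p = 0.599). It was -0.01 without ilimaquinone replicate 3, 0.38 without vehicle replicate 3, 0.06 without vehicle replicate 2 and 0.12 without vehicle replicate 1.

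The HSP90 gene hsp-90 (gene 179971, chromosome V, 14684918 to 14688935), first known in worms as the dauer gene daf-21, was at 6568, 8229.6 and 9515 CPM with vehicle and 9575, 9084 and 9703 CPM with ilimaquinone. The ilimaquinone libraries lay close together, with 2 just above the highest vehicle library and replicate 2 within the vehicle range. A log2 fold change of 0.22 ± 0.16 was estimated, with an interval of -0.15 to 0.59 (edgeR adjusted p = 0.42). Without vehicle replicate 1, the library lowest in hsp-90, it was 0.09.

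The co-chaperone gene sti-1 (gene 178587, chromosome V) was at 146, 181 and 246 CPM with vehicle and 206, 196 and 213 CPM with ilimaquinone. All ilimaquinone libraries fell inside the vehicle range. On the log2 scale the change was 0.11 ± 0.18, with an interval of -0.33 to 0.54 (edgeR adjusted p = 0.752), and it was -0.06 without vehicle replicate 1. Beside hsp-90, sti-1 TPM was 4.46%, 4.41% and 5.18% with vehicle and 4.32%, 4.33% and 4.41% with ilimaquinone, and these proportions overlapped. The proportion of hsp-90 to hsp-1 TPM was 183% ± 37.5 with vehicle and 165.5% ± 13.2 with ilimaquinone (SD, n = 3), and it was highest in vehicle replicate 2, at 226.5%.

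**Figure D3:**
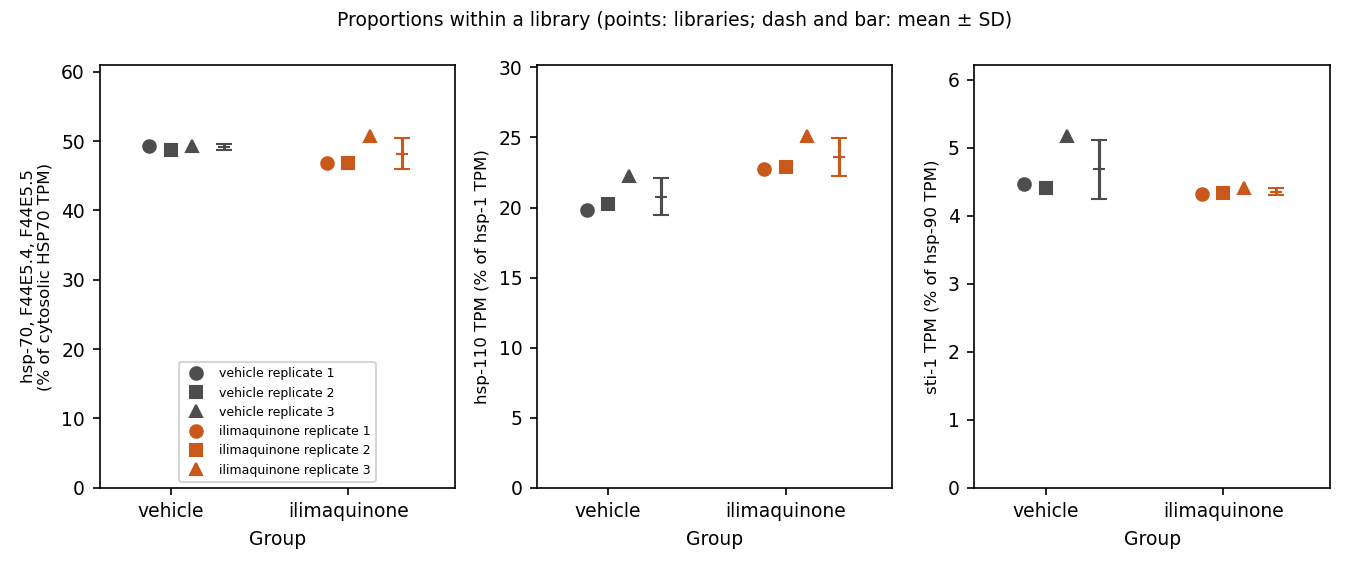
Proportions of TPM within each library by group, as the inducible genes' share of cytosolic HSP70, hsp-110 as a percentage of hsp-1, and sti-1 as a percentage of hsp-90; points are libraries, and dashes with bars are means ± SD over 3 libraries. Of these proportions, that of hsp-110 to hsp-1 separates the groups, at 19.8% to 22.3% against 22.8% to 25.1%. The inducible share includes F44E5.4 and F44E5.5, which are not measured separately.

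Most of the 10 genes, though not hsf-1 and dnj-12, were highest in the libraries numbered 3. In the vehicle group replicate 3 was the highest library for 9 of the 10 genes, and in the ilimaquinone group replicate 3 was the highest for 8. In 8 of the 10 genes both held, against 7.4% of all tested genes. These counts take F44E5.4 and F44E5.5 as 2 genes although they are not measured separately. The pattern was not particular to the 10 genes. Both also held for the hsp-16 genes described below except hsp-16.41. They held too for the co-chaperone genes described below except chn-1, pph-5 and unc-45. Genes are not independent of each other, and the labels do not say that equal numbers mark a shared batch. The chaperone genes with the widest spread between vehicle libraries were hsp-110, with a 1.79-fold range, F44E5.4, with a 1.74-fold range, and F44E5.5, with a 1.73-fold range. In CPM, the coefficient of variation was larger with vehicle than with ilimaquinone for all 10 genes and for 81.5% of all tested genes. It was 18.2% against 3.5% for hsp-90 and 26.5% against 4.2% for sti-1. In TPM it was not larger with vehicle for dnj-12, dnj-13, F44E5.4 and F44E5.5. For dnj-12, TPM was 371 ± 7.76 with vehicle and 458 ± 13.2 with ilimaquinone (SD, n = 3).

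**Figure D4:**
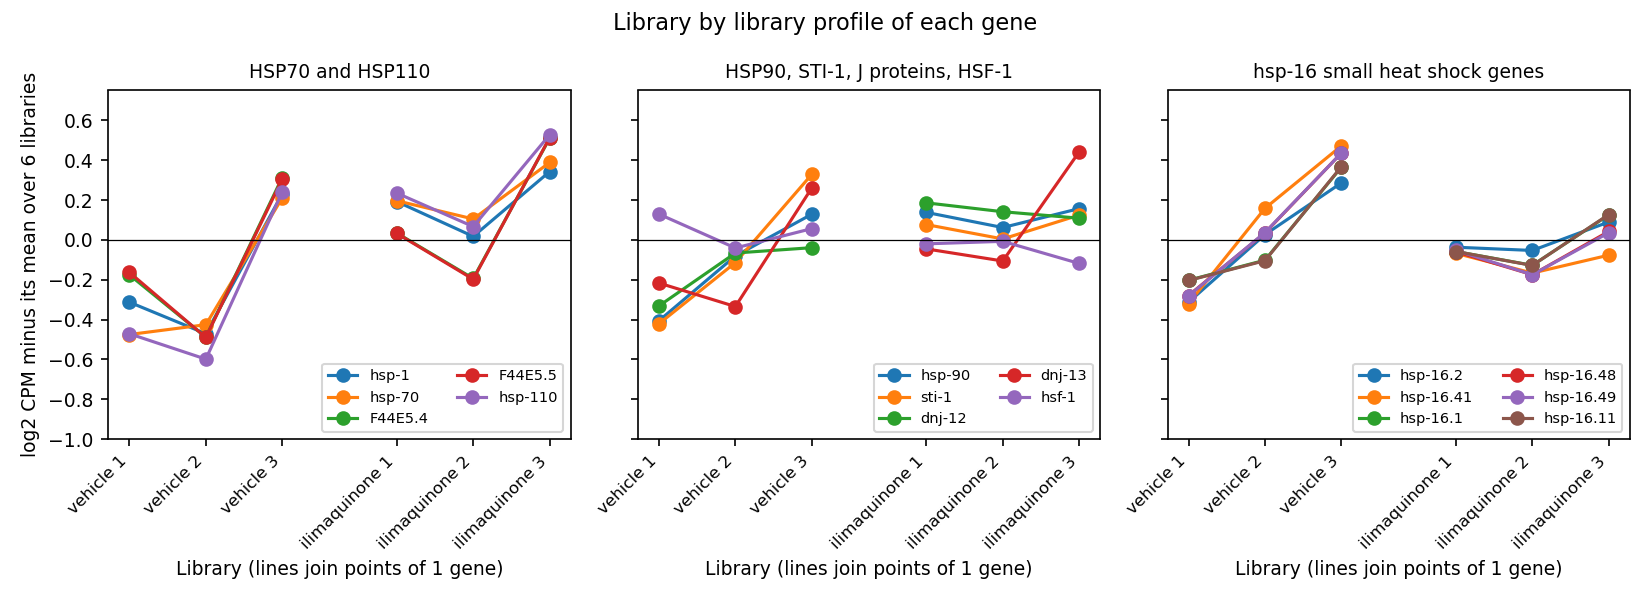
Level of each gene in each library as log2 CPM minus the gene's own mean over 6 libraries, for the HSP70 and HSP110 genes, for the other genes described, and for the hsp-16 genes; lines join the points of 1 gene within a group and carry no order, and F44E5.4 lies under F44E5.5. Vehicle replicate 3 is the highest vehicle library for every gene plotted except hsf-1, and the HSP70 and HSP110 genes are highest of all in ilimaquinone replicate 3.

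Genes with the most similar profile were sought among genes of at least 5 CPM by Pearson's r of log2 CPM over the 6 libraries. This is a description over few libraries, in which many genes reach high values. Nearest to hsp-70 were H28G03.2, F09E5.8 and the chaperonin subunit gene cct-4, with r of 0.994, 0.992 and 0.988. Nearest to hsp-90 were the actin gene act-4, the serotonin receptor gene ser-4 and the lipid-binding protein gene lbp-9, with r of 0.996 to 0.998. Nearest to hsf-1 were M03C11.3, trm-1 and Y73E7A.3, with r of 0.98 to 0.992. None of these 9 genes was called in edgeR.

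Other genes of the chaperone network were counted in lists, and no listed gene outside the tissue markers was called by edgeR. Co-chaperones of HSP90 and HSP70 numbered 9, and DESeq2 called 0 of them, as many as had p under 0.05 before adjustment. Their median log2 fold change was 0.01, with -0.02 to 0.12 over the alternatives. The member with the smallest p was pph-5, the gene of a protein phosphatase that binds HSP90, at 57.6 ± 4.23 against 50.9 ± 3.48 CPM (SD, n = 3; edgeR adjusted p = 0.333). Subunits of the cytosolic chaperonin and of prefoldin, which act together in the folding of actin and tubulin, numbered 14. Likewise, 0 of these had p under 0.05 before adjustment and 0 passed in DESeq2. Their median was 0.04, with -0.02 to 0.13 over the alternatives. Here pfd-4 had the smallest p, at 38.3 ± 5.80 against 32.9 ± 1.55 CPM (edgeR adjusted p = 0.355).

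Of 7 other HSP70 superfamily genes tested, 2 were higher at an unadjusted p under 0.05, beside 10.1% of all tested genes. Both had separated groups, beside 15.8% of all tested genes, and DESeq2 called 1, hsp-3. The other 5 had overlapping groups and edgeR adjusted p-values of 0.294 to 0.969. The endoplasmic reticulum gene hsp-3, which encodes a BiP protein, was at 1225, 1248 and 1440.0 CPM with vehicle and 1664, 1693 and 1647 CPM with ilimaquinone. It was higher by 0.35 ± 0.10 on the log2 scale, with an adjusted p of 0.143 in edgeR and 0.0227 in DESeq2. The mitochondrial gene hsp-6, named here after its values were seen, was at 1016 ± 151 against 1317 ± 106.1 CPM (SD, n = 3), with an edgeR adjusted p of 0.186. The list median was 0.13, with 0.01 to 0.23 over the alternatives.

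The other J-protein genes moved in no common direction. Of 28 listed, 27 were tested, 15 with a positive and 12 with a negative fold change. Their median was 0.01, with -0.04 to 0.08 over the alternatives. At an unadjusted p under 0.05 there was 1, dnj-24, beside 10.1% higher and 11.8% lower over all tested genes. This gene was at 39.0 ± 6.64 against 53.5 ± 3.45 CPM (SD, n = 3), a log2 difference of 0.46 ± 0.15 that edgeR did not call (adjusted p = 0.164). Groups were separated for 4 genes that were higher and 4 that were lower, beside 15.8% and 15% of all tested genes. DESeq2 called 0 of the 27.

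Partners of HSF-1 were measured too. The gene ddl-1 encodes a protein that holds HSF-1 in an inactive complex with DDL-2 and HSB-1. It was at 15.8 ± 0.920 CPM with vehicle and 12.4 ± 1.14 CPM with ilimaquinone (SD, n = 3). These groups did not overlap, beside 15% of all tested genes with separated groups that were lower. The log2 difference was -0.35 ± 0.13, the 1 value of this list of 5 at an unadjusted p under 0.05. Over all tested genes, 11.8% were lower at that threshold. The gene ddl-1 was not called (edgeR adjusted p = 0.203, 0 called by DESeq2). Its partner gene hsb-1 was at 51.0 ± 2.83 CPM with vehicle and 53.3 ± 2.23 CPM with ilimaquinone (SD, n = 3), with an edgeR adjusted p of 0.693. The second heat shock factor gene, hsf-2, which the deposited table lists as a pseudogene, was at 0.296 to 0.859 CPM with vehicle and 0.309 to 0.389 CPM with ilimaquinone.

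Small heat shock genes of the hsp-16 group are classical HSF-1 targets, and here they had estimates below 0. All 6 had a negative log2 fold change, from -0.24 to -0.02 with a median of -0.11. Of the 6, 1 was positive in limma-trend on TPM, 1 without ilimaquinone replicate 1 and 3 without ilimaquinone replicate 2. Without vehicle replicate 3 there were 5 positive values and a median of 0.08. DESeq2 called 0 of them, and 0 had p under 0.05 in edgeR before adjustment. Several of these genes are near-identical copies, so reads may be shared among them. The difference in sign between these genes and the HSP70 genes was not tested. Among them hsp-16.41 had the smallest p, at 495, 689 and 856 CPM with vehicle and 589, 550.1 and 585 CPM with ilimaquinone (edgeR adjusted p = 0.472).

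**Figure D5:**
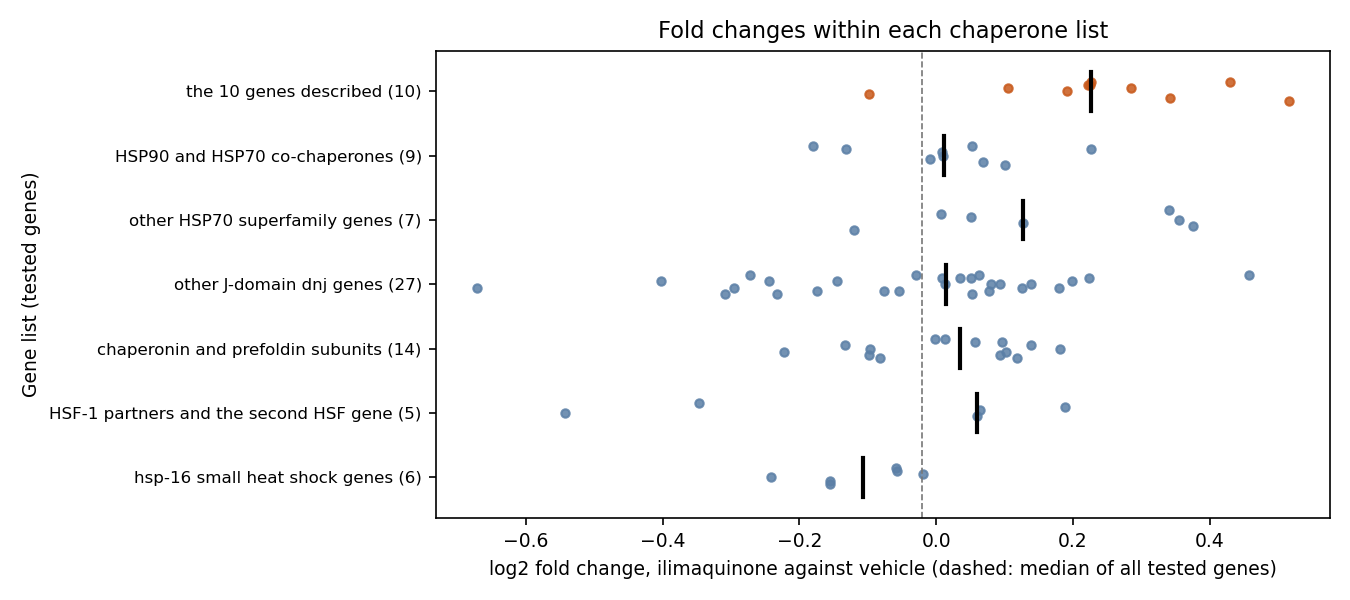
The log2 fold change of every tested gene in each chaperone list (points), with list medians as black bars and the median of all tested genes as a dashed line; the number of tested genes stands after each list name. The 10 genes described have a median of 0.23, which leaving out 1 library moves to between 0.124 and 0.416, and the hsp-16 genes one of -0.11.

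Several deposited loci are wider than the reference annotation, and this bears on which reads were counted. The locus of hsp-1 begins 25316 bases before its Ensembl start and overlaps 10 tested genes, of which 1, a small nucleolar RNA gene, overlaps it in Ensembl. The most abundant of these by mean, ZK550.6, was at 173 CPM with vehicle and 190.4 CPM with ilimaquinone, far below hsp-1. The locus of sti-1 ends 7489 bases past its Ensembl end and overlaps 2 tested genes. The more abundant, R09E12.9, was at 25.2 CPM with vehicle and 40.3 CPM with ilimaquinone, beside 191 and 205 CPM for sti-1. The transcript length of sti-1 was 1208 bases against 1096 in Ensembl. The dnj-13 locus ends at 11547501, past its Ensembl end, and overlaps F54D5.7, which starts at 11547481. That gene was at 102 CPM with vehicle and 115 CPM with ilimaquinone. The part of such overlaps in the counts was not tested. The loci of hsf-1 and hsp-110 overlapped no other tested gene. Each of the 10 genes has 1 transcript in the deposited transcript table, so isoforms could not be compared. None of those transcripts was called in edgeR, where 0.292% of 22238 transcripts were called.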

How the data were processed

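The 10 genes and the gene lists were chosen with earlier results of these data known. Library groups and replicate numbers come from the sample titles. Per the submitters' processing notes, bcl2fastq 2.20.0, HISAT2 2.1.0, SAMtools 1.9 and the build WBcel235 were used. Which program counted reads, with which annotation release and strand setting, are details not given in the sources used here. Libraries were stranded poly(A) preparations from 1 µg of RNA, per the labels' protocols.

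The authors deposited read counts, FPKM and TPM per gene and per transcript, per the file headers. The deposited counts are whole numbers and are called estimated counts here, because they follow FPKM times length, rounded up, in nearly all transcripts with fewer than 200 counts (within 0.02). The FPKM that the authors deposited entered that comparison alone. Deposited TPM gave levels, proportions and 1 alternative. The test planned for counts was kept, and no rounding was needed.

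In R 4.3.3, edgeR 4.0.16 (filterByExpr, TMM, glmQLFit, glmQLFTest, no covariate) was fitted over all genes, adjusted by Benjamini-Hochberg and called under 0.05. Here CPM uses TMM-scaled library sizes. SE is the fold change over the square root of F, and intervals use the moderated degrees of freedom. The test was checked on data with known answers. Alternatives were DESeq2 1.42.0, other scalings, filters, a replicate block, limma-trend (limma 3.58.1) of log2(TPM + 1), and each library left out in turn. Named genes were all 10, called genes of each list or otherwise that with the smallest p, and the 3 genes most like hsf-1, hsp-70 and hsp-90. Genes hsp-6, hsb-1, hsf-2, chn-1, unc-45, ZK550.6, R09E12.9 and F54D5.7 were named after their values were seen. Loci are the deposited ones on WBcel235 beside Ensembl release 115.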

Additional observations from a re-analysis of the deposited data

How the results depend on the processing

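None of the 10 genes was called under any of the 14 alternative settings, and all but 4 of their fold changes under those settings kept their sign. These 4 were F44E5.4 at -0.0067, F44E5.5 at -0.0097 and dnj-13 at -0.012 without ilimaquinone replicate 3, and sti-1 at -0.0599 (its transcript at -0.058) without vehicle replicate 1. The cause was not tested. Leaving out 1 library gave at most 0.458, 0.451, 0.381 and 0.319 for these genes in the same order, each without vehicle replicate 3. Over all genes, 188 higher and 54 lower calls became 882 and 949 in DESeq2, 60 and 9 without a filter on low counts, and 94 lower with the stricter filter. Leaving out 1 library gave 11 to 451 higher and 0 to 274 lower calls. Transcripts called higher went from 52 to 32 without vehicle replicate 1.

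With the replicate number as a block there were 21 higher and 1 lower gene calls, and 0 transcripts called either way. The deviations of same-numbered libraries from their group means had correlations of -0.161, 0.288 and -0.161 for numbers 1, 2 and 3. Not every library correlated best with its own number, so the numbers are not taken to pair libraries. Within the block hsp-110 was at 0.55 on the log2 scale, with an edgeR adjusted p of 0.196. The proportion of hsp-90 to hsp-1 was 17.6 percentage points lower with ilimaquinone, but 4.02 higher without vehicle replicate 2. For depth, each of the 10 genes had at least 2168 counts in every library.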

Other observations

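The TPM of each gene was also set beside that of hsp-16.2, a small heat shock gene that responds to HSF-1, within each library. For 6 of the 10 genes, hsp-1, hsp-70, hsp-90, hsp-110, dnj-12 and sti-1, the ratio was higher in every ilimaquinone library than in any vehicle library. For the other 4, hsf-1, F44E5.4, F44E5.5 and dnj-13, the groups overlapped. The ratio of hsp-70 was 0.502, 0.408 and 0.53 in vehicle replicates 1, 2 and 3 and 0.651, 0.628 and 0.70 in the ilimaquinone libraries. For F44E5.4 it was 0.462, 0.292 and 0.425 with vehicle and 0.435, 0.382 and 0.57 with ilimaquinone. All 10 ratios share the hsp-16.2 values, hsp-16.2 was chosen after its values were seen, and no test was run on the ratios. The share of all tested genes with separated ratios is not given here. In CPM, 1 of the 10 genes had separated groups. The divisor hsp-16.2 was at 496, 627 and 751 CPM with vehicle and 600, 594 and 656 CPM with ilimaquinone.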
